A study of Mus musculus with 2 samples.

Results

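The genes described here are 7 cadherins (Cdh1, Cdh2, Cdh3, Cdh4, Cdh6, Cdh11 and Cdh13) and 3 catenins (Ctnna1, Ctnnd1 and Jup), 10 of the 32285 genes counted in scRNA-Seq libraries of GL261 cells. They were chosen by gene symbol, with no rule on their values. GL261 is a mouse glioma cell line of the C57BL/6 strain, labelled as an astrocytoma. The adherent library was made from cells grown attached in serum-containing medium. The neurosphere library was made from the same line after 12 days in that medium with B-27 and with EGF and FGF (epidermal and fibroblast growth factor, each at 20 ng/ml) added, which gives free-floating aggregates. Both cultures were brought into suspension with trypsin, and the neurospheres were also broken up by pipetting. There was 1 library per culture, so each difference below compares 2 libraries, has no replicate check and carries no p-value. All intervals are 95% intervals that cover counting error only. They are exact, except that those of UMI ratios between 2 genes use a normal approximation.

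Classical cadherins are transmembrane proteins that bind the same or a related cadherin on a neighbouring cell in the presence of calcium. Inside the cell, the tail binds p120-catenin (Ctnnd1) near the membrane, which slows removal of the cadherin from the surface, and beta-catenin (Ctnnb1) or plakoglobin (Jup) further along. Alpha-catenin (Ctnna1) then links beta-catenin or plakoglobin to actin. E-cadherin (Cdh1) is the main cadherin of epithelia and N-cadherin (Cdh2) that of neural and mesenchymal cells, gliomas among them. Cdh13 (T-cadherin) is the exception, as it is held in the membrane by a lipid anchor and has no tail for catenins.

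After quality control, 5051 adherent and 4276 neurosphere cells were kept, with medians of 8260 and 13198.5 unique molecular identifiers (UMIs, each standing for 1 captured RNA molecule) per cell. The 10 genes together held 14338 UMIs in adherent and 22082 UMIs in neurosphere cells. The deeper neurosphere library gives more cells with a UMI at an equal level, so shares of cells are also given with every cell thinned to 5000 UMIs, which 4464 adherent and 4196 neurosphere cells reached. Levels are given as CPM, the UMIs of a gene scaled to a common library total. Of 11 glial markers, Aqp4 had 0 UMIs in both libraries and Gfap, which defines astrocytes, had 30 adherent and 27 neurosphere UMIs, while Vim, S100b, Sox2 and Slc1a3 were at 80.5 CPM or more in both. Slc1a2 had 4 and 2 UMIs, Aldh1l1 was at 3.63 and 5.39 CPM, and Aldoc at 11.3 and 17.1 CPM. Olig2 (69.8 and 465 CPM) and Nes (104 and 201 CPM) had the highest log2 fold changes of that list, and Slc1a3 (370 and 80.5 CPM) and Vim (5583 and 1763 CPM) the lowest. The 8 immune markers summed to 17.7 and 10.2 CPM, most of it Cd68 (485 and 276 UMIs), Cd14 (206 and 334) and Lyz2 (119 and 34), with Ptprc at 1 and 0 UMIs and Adgre1 at 0. The 6 endothelial markers summed to 25.8 and 25.9 CPM, most of it Flt1 (1124 and 1428 UMIs), with Pecam1 at 61 and 208 UMIs and Cldn5 at 1 and 0. Both libraries shared 12 cell barcodes. As both hold a single cell line, the share of cells that free RNA alone would mark could not be read from cells known to lack a member.

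Among the 7 cadherin members, nearly all UMIs in both cultures came from Cdh2 and Cdh6. Cdh2 had 5177 UMIs in adherent cells (112 CPM, interval 109 to 115) and 6011 in neurosphere cells (92.6 CPM, 90.2 to 94.9). Cdh6 had 2813 UMIs in adherent cells (60.8 CPM, 58.5 to 63.1) and 1746 in neurosphere cells (26.9 CPM, 25.6 to 28.2). The other 5 cadherins stayed below 0.6 CPM in both libraries. Of the 10 genes, 6 reached the 50 UMIs over both libraries that a gene needed to be counted. None of these 6 was over 2-fold higher in neurosphere cells, where 21.7% of 14654 genes were, and 1 of 6, Cdh6, was over 2-fold lower, where 11.7% of genes were. The median log2 fold change (neurosphere over adherent) of the 6 was 0.42, and that of all 14654 genes was 0.32. Their order is not stable. It turned without cells over the 95th percentile of UMIs (0.18 and 0.32), where 5 members reached 50 UMIs. With all 6, it turned with 1 CPM added (0.17 and 0.27) and with a trend over gene length removed (0.33 and 0.34).

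**Figure D1:**
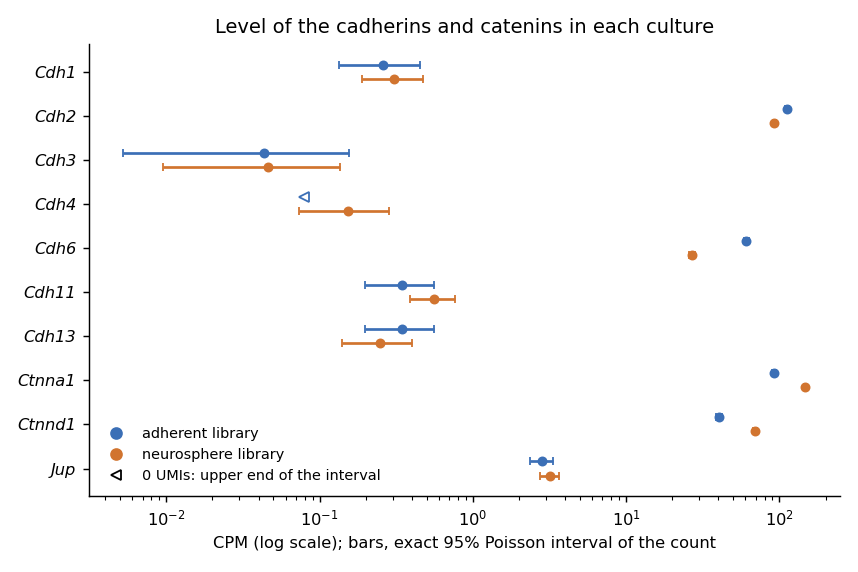
Level of each cadherin and catenin in the adherent (blue) and neurosphere (orange) library, in CPM on a log axis, with exact 95% Poisson intervals of the count as bars. Cdh2, Cdh6, Ctnna1 and Ctnnd1 sit above 20 CPM in both libraries, Jup near 3 CPM, and the other 5 cadherins below 0.6 CPM; the open triangle is the upper end of the interval for Cdh4, with 0 UMIs in adherent cells.

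N-cadherin is encoded on the minus strand of chromosome 18, at 16588877 to 16809246 (GENCODE, GRCm38, as for all gene positions here). Its level was 1.21-fold lower in neurosphere cells, with a log2 fold change of -0.27 (-0.33 to -0.22). Counting mitochondrial and ribosomal UMIs in the total took this difference to -0.05 (-0.11 to 0.00). A Cdh2 UMI was seen in 55.9% of adherent and 63.6% of neurosphere cells before thinning, an order opposite to that of the CPM, and in 39.7% (38.2 to 41.1) and 35.8% (34.3 to 37.3) at equal depth. Single cells held up to 15 Cdh2 UMIs in the adherent and 18 in the neurosphere library. In thinned cells, the variance of the Cdh2 count was 1.28 times its mean in adherent and 1.44 times in neurosphere cells, where a Poisson count would give a ratio near 1. The share of thinned cells with at least 2 Cdh2 UMIs was 12.9% and 10.0%.

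Cdh6 (K-cadherin), a type II classical cadherin known from kidney and the embryonic nervous system, lies on the minus strand of chromosome 15 from 13028701 to 13173675. It was the only one of the 6 counted genes past 2-fold, at 2.26-fold lower in neurosphere cells, with a log2 fold change of -1.18 (-1.26 to -1.09). Counting mitochondrial and ribosomal UMIs in the total gave a log2 fold change of -0.96, short of 2-fold. Cells with a Cdh6 UMI made up 38.6% of adherent and 25.7% of neurosphere cells. At equal depth these shares were 24.6% (23.3 to 25.9) and 11.2% (10.3 to 12.2). The highest Cdh6 count in 1 cell was 9 in the adherent and 20 in the neurosphere library. The variance over the mean in thinned cells was 1.19 in adherent and 1.40 in neurosphere cells, so the rarer Cdh6 molecules of neurosphere cells were also less evenly spread.

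The RefSeq promoter table (GRCm38.p6) had entries for 3 of the 10 genes, Cdh6, Ctnnd1 and Jup. The 250 bases before the start of Cdh6 and before both listed starts of Ctnnd1 are shown because Cdh6 was the member furthest below and Ctnnd1, among members with over 100 UMIs, the one furthest above 0 in log2 fold change. Each is written 5′ to 3′ on the gene's own minus strand, with each CG dinucleotide in capitals:
Cdh6, chr15:13173676-13173925: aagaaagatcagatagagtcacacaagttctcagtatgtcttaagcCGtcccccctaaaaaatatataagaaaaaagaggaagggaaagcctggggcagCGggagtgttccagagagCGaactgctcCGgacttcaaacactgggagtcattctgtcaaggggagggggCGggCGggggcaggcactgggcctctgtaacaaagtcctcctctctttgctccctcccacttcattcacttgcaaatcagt
Ctnnd1, upper start, chr2:84658978-84659227: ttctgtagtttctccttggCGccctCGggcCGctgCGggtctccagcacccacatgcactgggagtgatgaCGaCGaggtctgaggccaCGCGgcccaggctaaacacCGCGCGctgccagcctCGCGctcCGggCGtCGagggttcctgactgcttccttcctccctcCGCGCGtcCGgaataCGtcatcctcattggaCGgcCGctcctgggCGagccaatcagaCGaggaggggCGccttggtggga
Ctnnd1, lower start, chr2:84650741-84650990: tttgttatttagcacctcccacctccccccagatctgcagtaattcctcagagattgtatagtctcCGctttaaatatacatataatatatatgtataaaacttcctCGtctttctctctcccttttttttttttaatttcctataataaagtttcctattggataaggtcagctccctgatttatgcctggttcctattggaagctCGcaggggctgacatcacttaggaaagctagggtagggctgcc

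The Cdh6 window holds 6 CG dinucleotides and is 51.2% G and C, close to the medians of 6.00 and 52.4% over 32851 windows of the same length. CG reads the same on both strands. The upper Ctnnd1 window holds 26 of them at 66.8% G and C, and 9.59% of windows hold as many or more. The lower Ctnnd1 window holds 3 at 40.0% G and C. The upper start lies outside the span that GENCODE gives Ctnnd1 (84600071 to 84650765). The Jup window, not shown, holds 13. The E-box letters CAGGTG, which Snail and Zeb repressors of Cdh1 are known to bind, or their reverse complement CACCTG, are in 17.2% of windows and in none of the 4 windows of Cdh6, Ctnnd1 and Jup. UMIs were counted per gene, so the libraries do not say which start of Ctnnd1 was in use.

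E-cadherin RNA was rare in both cultures. Cdh1 (chromosome 8, plus strand, 106603351 to 106670246) had 12 UMIs in adherent cells (0.259 CPM, interval 0.134 to 0.453) and 20 in neurosphere cells (0.308 CPM, 0.188 to 0.476). The log2 fold change was 0.25 with an interval from -0.85 to 1.41, so no difference was detectable at this depth. The 12 adherent UMIs lay in 12 cells, 0.238% of the library, of which 6 also held Cdh2. The 20 neurosphere UMIs lay in 17 cells, 0.398% of the library, and 1 cell held 4 of them. Of these 17 cells, 15 also held a Cdh2 UMI, a gene seen in 63.6% of all neurosphere cells, 11 held Krt8, seen in 75.3% of all, and 6 held Epcam, seen in 55.1%.

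Cdh3 (P-cadherin), which lies just before Cdh1 on the same strand of chromosome 8 from 106510891 to 106557297, had 2 and 3 UMIs. Cdh4 (R-cadherin, chromosome 2, 179442431 to 179899373), a retinal and brain cadherin, had 0 UMIs in adherent cells, where 3 counts would be 0.0648 CPM, and 10 UMIs in neurosphere cells (0.154 CPM), with no more than 1 in any cell. Against that floor of 3 counts over the library, Cdh4 was at least 2.38-fold higher in neurosphere cells, and with the counting error of its 10 UMIs the interval of the log2 fold change starts at 0.68. Cdh11 (OB-cadherin, chromosome 8, 102632095 to 102785642), a mesenchymal cadherin, had 16 and 36 UMIs, 0.346 and 0.554 CPM, with a log2 fold change of 0.68 and an interval from -0.20 to 1.63. Cdh13 (chromosome 8, 118283733 to 119324921) had 16 UMIs in each library, with a log2 fold change of -0.49 and an interval from -1.58 to 0.61. At equal depth, 0.493% of adherent and 0.786% of neurosphere cells held any UMI of these 4 cadherins or Cdh1. The neurosphere over adherent difference of each one but Cdh4 had an interval that included 0.

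Summed over the 7 cadherins, adherent cells held 174 CPM and neurosphere cells 121 CPM, which is a log2 fold change of -0.52 (-0.57 to -0.48). Cdh2 made up 64.4% (63.4 to 65.5) of the summed UMIs in adherent and 76.7% (75.7 to 77.6) in neurosphere cells. Cdh6 made up 35.0% (34.0 to 36.1) and 22.3% (21.3 to 23.2). The remaining cadherins each held less than 0.5% in either library. Per kilobase of exon, the level of Cdh2 was 13.9 CPM in the adherent and 11.5 CPM in the neurosphere library, and that of Cdh6 was 6.73 and 2.98 CPM. Cdh2 was the higher of this pair in both cultures with or without this scaling. A UMI stands for 1 captured RNA molecule whatever its length, so levels per kilobase are descriptions only, here and below. The ratio of Cdh6 to Cdh2 UMIs, which needs no total to scale it, was 0.543 in adherent and 0.290 in neurosphere cells, a log2 change of -0.90 (-1.01 to -0.80).

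In thinned cells, both classes of cells that held Cdh6 had smaller shares in the neurosphere library. Cells with a UMI of both Cdh2 and Cdh6 made up 10.9% (10.0 to 11.9) of adherent and 4.24% (3.65 to 4.90) of neurosphere cells. Cdh6 without Cdh2 was seen in 13.7% (12.7 to 14.7) and 6.96% (6.21 to 7.77), and Cdh2 without Cdh6 in 28.7% (27.4 to 30.1) and 31.6% (30.1 to 33.0). The rest, 46.7% and 57.2%, held no UMI of either, which at 5000 UMIs per cell does not show that they lacked both RNAs.

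**Figure D2:**
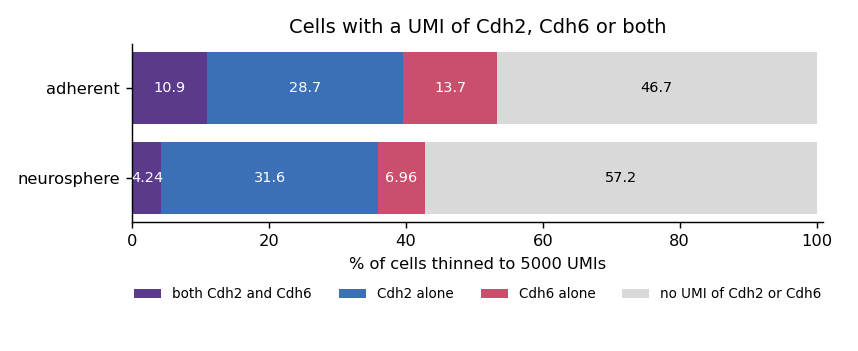
Share of cells with a UMI of both Cdh2 and Cdh6, of either alone or of neither, in percent of the cells of each library thinned to 5000 UMIs (4464 adherent, 4196 neurosphere). The parts with Cdh6 are wider in adherent cells, at 10.9% and 13.7% against 4.24% and 6.96%.

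Cdh2 and Cdh6 met in the same cell about as often as, or slightly more often than, their separate shares give. In adherent cells, 488 thinned cells held both, where 435 would with independent detection, a ratio of 1.12, or 1.10 within clusters. That expected number, 9.75% of cells, lies just below the interval of the observed share (10.0 to 11.9). In neurosphere cells, 178 held both against 168, a ratio of 1.06, with the expected 4.01% inside the interval (3.65 to 4.90). Cdh6 was seen in 27.6% of adherent cells with a Cdh2 UMI and in 22.6% of those without. Over all 10 pairs of Cdh2, Cdh6, Ctnna1, Ctnnd1 and Ctnnb1 in each library, the ratio ran from 0.969 to 1.19.

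Alpha-catenin and p120-catenin were higher in neurosphere cells, against the direction of Cdh2 and Cdh6. Ctnna1 (chromosome 18, plus strand, 35118859 to 35254779) had 4294 UMIs in adherent cells (92.8 CPM) and 9538 in neurosphere cells (147 CPM), a log2 fold change of 0.66 (0.61 to 0.72). Cells with a Ctnna1 UMI made up 36.8% (35.4 to 38.2) of thinned adherent and 52.1% (50.6 to 53.6) of thinned neurosphere cells. Ctnnd1 (chromosome 2, minus strand, 84600071 to 84650765) had 1878 and 4496 UMIs, 40.6 and 69.2 CPM, a log2 fold change of 0.77 (0.69 to 0.85). Its thinned shares were 18.4% (17.2 to 19.5) and 29.4% (28.0 to 30.8). Relative to the median of all genes, Ctnna1 was 0.34 and Ctnnd1 0.45 higher on the log2 scale, while Cdh2 was at -0.60 and Cdh6 at -1.50. Both catenins were under the 2-fold line that 21.7% of genes passed.

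Jup, the gene of plakoglobin, which can take the place of beta-catenin and also belongs to desmosomes, was the least abundant of the 3 catenin members. Jup (chromosome 11, minus strand, 100368958 to 100397763) had 130 UMIs in adherent cells (2.81 CPM) and 206 in neurosphere cells (3.17 CPM). The log2 fold change was 0.18 with an interval from -0.15 to 0.50, and it was -0.04 with TMM scaling. Jup was seen in 1.43% of thinned adherent and 1.98% of thinned neurosphere cells, with intervals (1.11 to 1.83 and 1.58 to 2.45) that overlap. Per kilobase of exon, the level of Ctnna1 was 14.4 CPM in the adherent and 22.9 CPM in the neurosphere library, that of Ctnnd1 5.54 and 9.46 CPM, and that of Jup 0.436 and 0.493 CPM.

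**Figure D3:**
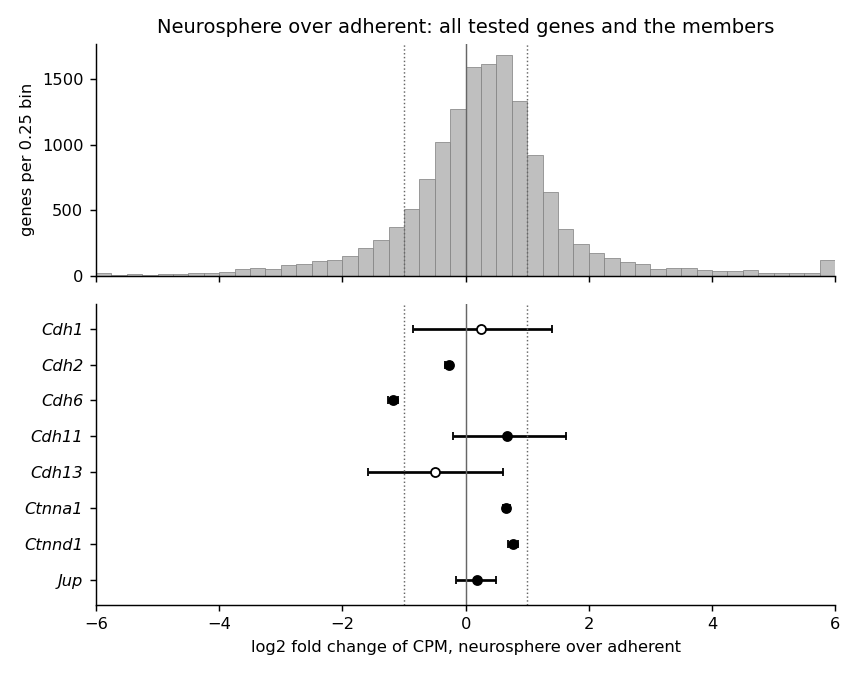
Top, number of genes per 0.25 bin of the log2 fold change of CPM (neurosphere over adherent) for the 14654 genes with at least 50 UMIs, with genes beyond 6 in either direction placed in the end bins. Bottom, the members on the same axis with exact 95% intervals, filled where a gene had at least 50 UMIs; dotted lines mark 2-fold, Cdh3 and Cdh4 are left out for their counts of 3 or fewer in a library, and of the filled points Cdh6 alone is past a dotted line.

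The balance of Cdh2 and Cdh6 RNA to catenin RNA within a library therefore differed between the cultures. There were 1.21 Cdh2 UMIs per Ctnna1 UMI in adherent and 0.630 in neurosphere cells, a log2 change of -0.94 (-1.01 to -0.86). Cdh6 UMIs per Ctnna1 UMI were 0.655 and 0.183, a log2 change of -1.84 (-1.94 to -1.74). Ctnnd1 kept closer to Ctnna1, at 0.437 and 0.471 (log2 change 0.11, 0.01 to 0.20). Jup per Ctnna1 UMI was 0.0303 and 0.0216 (log2 change -0.49, -0.81 to -0.17). Beta-catenin, which was not among the members but completes the complex, had 31.8 CPM in the adherent and 75.1 CPM in the neurosphere library (log2 fold change 1.24, 1.15 to 1.32), and its ratio to Ctnna1 was 0.343 and 0.512. Ctnnb1 also acts in Wnt signalling, and its RNA level does not say where the protein is. The lower cadherin ratios are those of Cdh2 and Cdh6 and do not stand for all classical cadherins. Over 19 classical cadherin genes, most of it Cdh18, there were 133793 adherent and 294073 neurosphere UMIs, beside 4294 and 9538 of Ctnna1. Without Cdh18, a sum chosen after seeing the data, there were 14692 and 45818.

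Cdh2, Cdh6 and the catenins also varied among clusters of cells within each culture. Each library was clustered without the members among the variable genes, which gave 10 adherent and 9 neurosphere clusters. Clusters of 1 library share a preparation but differ in depth and in the level of Malat1, a nuclear RNA. That level is given beside the extremes, and its part in the differences was not tested. In the adherent library, Cdh2 ran from 62.7 CPM in the cluster led by Areg, Spink2 and Lcn2 (Malat1 979.9 CPM) to 439.7 CPM in a cluster of 50 cells led by Lars2, Pcdh9, Sgcz, Neat1 and Lncpint (Malat1 15722 CPM). Cdh6 ran from 33.7 to 476 CPM, Ctnna1 from 59.5 to 216 CPM and Ctnnd1 from 20.4 to 137 CPM between the same clusters. The cluster of 50 cells had a median of 2624 UMIs and 12.3% mitochondrial UMIs, against at least 6479 UMIs and at most 2.33% in the other 9. Without it, the highest Cdh2 cluster was that led by Ccl5 (173 CPM, 162 to 185, Malat1 3538 CPM) and the highest Cdh6 cluster that led by Cd68, Mt3 and Spp1 (90.6 CPM, 81.5 to 100.5, Malat1 5220.1 CPM). Highest over lowest was then 2.76 for Cdh2, 2.69 for Cdh6, 2.28 for Ctnna1 and 2.78 for Ctnnd1.

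Neurosphere clusters held Cdh2 between 58.2 CPM (53.4 to 63.3), in the cluster led by the mitotic genes Cdc20, Plk1 and Ccnb1 (Malat1 1577 CPM), and 141 CPM (129.5 to 153), in the cluster led by Enpp2, Dusp15 and Mbp, where Gpr17, a marker of differentiating oligodendrocyte precursors, is also among the top genes (Malat1 5707 CPM). The level of Cdh6 was lowest at 16.4 CPM (13.2 to 20.1) in the cluster led by Comp and Ism1 (Malat1 5742 CPM), in which Cdh2 was at 132 CPM, and highest at 38.5 CPM (34.0 to 43.5) in the cluster led by Nppb, Cxcl10 and Cxcl2 (Malat1 3021 CPM). The Cdh2 share of the 7 cadherins' UMIs accordingly ran from 68.4% to 87.4% across neurosphere clusters, the top value being that of the Comp and Ism1 cluster, and from 47.3% to 72.9% across adherent ones. Ctnna1 ran from 110 to 208 CPM and Ctnnd1 from 45.7 to 103 CPM. At equal depth, Cdh6 was seen in 7.39% of cells of the Comp and Ism1 cluster and in 16.2% of the Nppb cluster, and Cdh2 in 42.9% and 36.6%. Cluster shares of cells with Cdh6 were 16.7% to 32.8% over the 9 adherent clusters with cells of 5000 UMIs, and 7.39% to 16.2% over the 9 neurosphere clusters. The nearest clusters of the 2 libraries, at 16.7% (13.8 to 19.9) and 16.2% (13.2 to 19.7), had overlapping intervals.

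**Figure D4:**
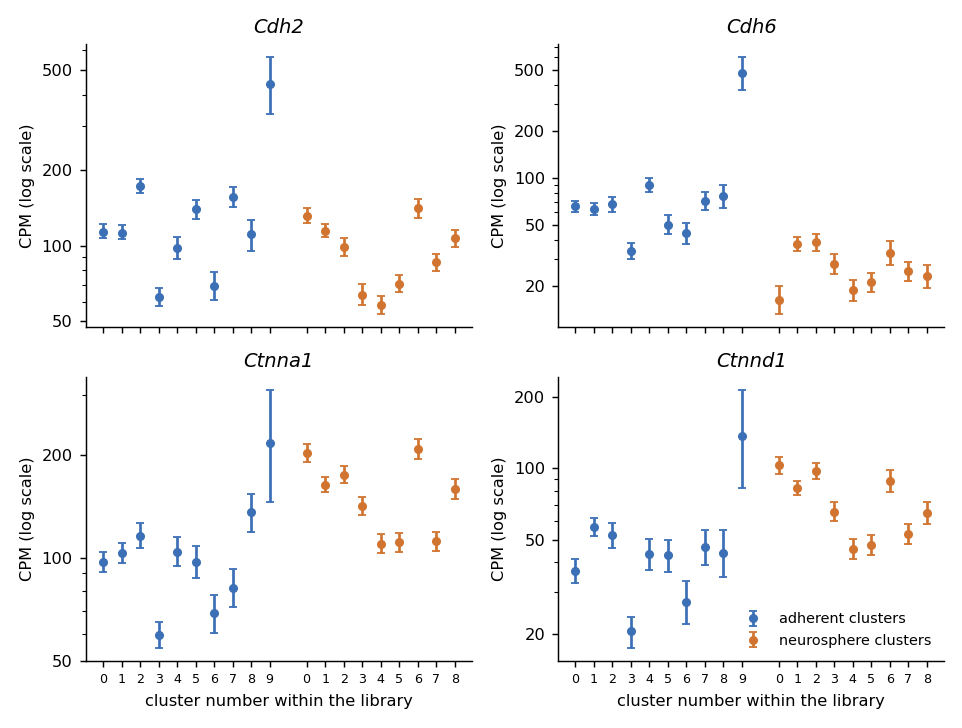
CPM of Cdh2, Cdh6, Ctnna1 and Ctnnd1 on a log axis in each cluster of the adherent (blue, 10 clusters) and neurosphere (orange, 9 clusters) library, numbered within the library, with exact 95% Poisson intervals as bars. Adherent cluster 9, of 50 shallow cells, is the highest point of all 4 panels, and neurosphere cluster 0, led by Comp and Ism1, is the lowest for Cdh6 but among the highest for Cdh2 and both catenins.

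Across clusters, log2(CPM + 1) of Cdh2 and Cdh6 had a Pearson r of 0.881 over the 10 adherent clusters, 0.598 over 9 without the cluster of 50 cells, and 0.269 over the 9 neurosphere clusters. Ctnna1 and Ctnnd1 had an r of 0.917 (0.806 without that cluster) in adherent and 0.946 in neurosphere clusters. Cdh2 and Ctnna1 had an r of 0.852 (0.640) and 0.859, while Cdh6 and Ctnna1 had 0.891 (0.792) and 0.317. These are descriptions over few points of 1 library each. Among 7854 genes with at least 500 adherent UMIs, the nearest to Cdh2 over the adherent clusters, where it was higher, were Trim8 (r 0.991), Cdh10 (0.987) and Stim1 (0.985). The nearest to Cdh6 were Ptk2 (0.994), Ttc19 (0.993) and Zbtb20 (0.992). Without the cluster of 50 cells, their r with the member was 0.955 to 0.986.

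Several genes that repress or accompany Cdh1 in epithelia differed by over 2-fold between the cultures. Of 8 transcription factors known to repress Cdh1, 6 had enough UMIs, 4 of which were higher in the neurosphere library by over 2-fold and none lower, beside 21.7% and 11.7% of all genes. With too few UMIs to be counted, Twist2 (10 and 0 UMIs) was lower in neurosphere cells, with a log2 interval below -1.65, and Snai2 had 0 and 2 UMIs. Tcf4 was at 176 and 513 CPM and Tcf3 at 64.5 and 186 CPM, while Zeb1 (68.5 and 71.0 CPM) and Zeb2 (43.8 and 57.7 CPM) were closer. Of 16 epithelial genes, 6 were counted and 4 were over 2-fold higher, beside the same 21.7%. Krt8, a keratin of simple epithelia, was at 3.93 and 3025 CPM and its partner Krt18 at 0.108 and 26.1 CPM, while Grhl2 (0.713 and 1.15 CPM) and Marveld2 (0.540 and 0.770 CPM) stayed low. Among those with under 50 UMIs, Ocln, a tight junction protein (22 and 10 UMIs), and the splicing regulators Esrp1 (16 and 9) and Esrp2 (25 and 12) were lower in neurosphere cells, with log2 intervals below 0, and Rab25, a trafficking protein (6 and 34), was higher, with an interval of 0.75 to 3.56. Cdh1 thus stayed near 0.3 CPM in a library in which 75.3% of cells held Krt8 and 55.1% Epcam. In thinned neurosphere cells, Cdh2 was seen in 33.9% (32.1 to 35.7) of cells with a Krt8 UMI and 39.4% (36.9 to 42.0) of those without, and Cdh6 in 9.43% (8.36 to 10.6) and 14.6% (12.8 to 16.5). Ctnna1 was seen in 52.2% and 52.0%. Split by Epcam, Cdh2 was seen in 31.7% (29.2 to 34.2) of cells with it and 37.9% (36.1 to 39.7) without, Ctnna1 in 47.6% (44.9 to 50.3) and 54.4% (52.5 to 56.2), Ctnnd1 in 26.4% (24.1 to 28.8) and 30.9% (29.2 to 32.6), and Cdh6 in 9.55% (8.06 to 11.2) and 12.0% (10.8 to 13.3). In adherent cells, Ctnna1 lay in the other direction, at 41.9% (37.1 to 46.9) with Epcam and 36.3% (34.8 to 37.8) without, and the intervals of Cdh2, Cdh6, Ctnna1 and Ctnnd1 all overlapped between the 2 classes. Krt8 is abundant enough in the neurosphere library for free RNA to mark cells that do not express it, and how many was not measured.

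The members' share of the classical cadherin UMIs turned on Cdh18. Over 19 classical cadherin genes, the 7 members held 6.01% (5.88 to 6.13) of the UMIs in adherent and 2.67% (2.61 to 2.73) in neurosphere cells. Cdh18 alone held 89.0% and 84.4%, at 2573 and 3823 CPM. Without Cdh18, a sum chosen after seeing the data, the members held 54.7% (53.9 to 55.5) and 17.1% (16.8 to 17.5). Cdh10 (34.8 and 262 CPM), Cdh19 (107 and 317 CPM) and Cdh12 (0.216 and 3.46 CPM) were over 2-fold higher in neurosphere cells. Of the 12 other classical cadherins, 5 were counted, 3 were over 2-fold higher (21.7% of all genes), none was lower, and Cdh24 was the nearest to 0 (log2 fold change 0.38, -0.13 to 0.90). Cdh18 and Cdh2 keep their order per kilobase of exon in adherent cells, at 565 and 13.9 CPM. Cdh18 spans 925 kb, and whether reads in introns were counted is not given in the sources used here. Per kilobase of the whole gene, its level was 2.78 CPM in adherent cells against 0.507 CPM for Cdh2.

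Among 10 other catenins and relatives, 8 were counted, of which 2 were over 2-fold higher (Ctnnb1 and Arvcf, a relative of p120-catenin, at 1.58 and 3.94 CPM) and 4 over 2-fold lower, beside 21.7% and 11.7% of all genes. The 4 were Ctnna3 and the plakophilins Pkp1, Pkp2 and Pkp3, which serve desmosomes as armadillo-repeat relatives of p120-catenin. Pkp3 was at 5.96 and 0.908 CPM and Pkp1 at 1.47 and 0.370 CPM. Of 8 other desmosome genes, Ppl alone was counted, at 6.61 and 1.96 CPM, and the desmosomal cadherins Dsg2, Dsg3, Dsc2 and Dsc3 had at most 8 UMIs in either library. Of 15 actin linkers and nectins at the junction, 14 were counted, 5 higher and 1 lower by over 2-fold (21.7% and 11.7% of all genes), with Magi1 (52.3 and 255 CPM) and Plekha7 (14.7 and 43.0 CPM), which binds p120-catenin, the most higher, and Pdlim1 (6.24 and 2.09 CPM) and Actn4 (148 and 87.4 CPM) the most lower. Of 14 genes of cadherin cleavage, phosphorylation and turnover, all were counted, and 3 were over 2-fold higher, which is close to the 21.7% of all genes, and none lower. Ptprm, a phosphatase that binds cadherins, was at 0.173 and 1.45 CPM and Numb, an endocytic adaptor, at 13.6 and 43.5 CPM, while Iqgap1 (123 and 85.4 CPM) and Adam15 (16.2 and 11.4 CPM) were lower by less than 2-fold. Of 12 genes known to respond to dissociation, 10 were counted, with 3 higher and 3 lower by over 2-fold (21.7% and 11.7% of all genes). Their extremes in log2 fold change were Btg2 (2.53) and Egr1 (1.89) upward and Ier3 (-2.51) and Atf3 (-1.16) downward, and the list's part in the members' differences was not tested.

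**Figure D5:**
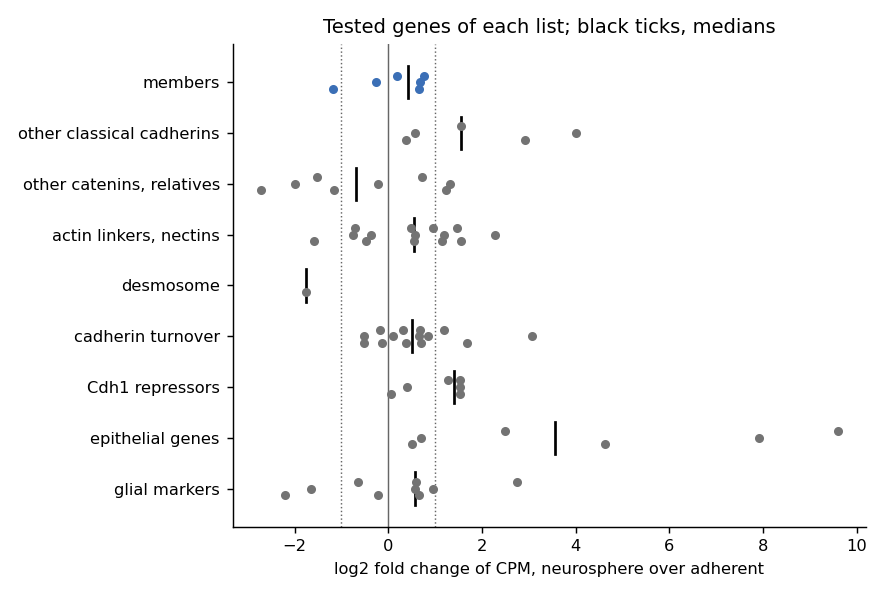
Log2 fold change of CPM (neurosphere over adherent) of each gene with at least 50 UMIs in the members (blue) and in 8 related gene lists (grey), with the median of each list as a black tick and 2-fold as dotted lines. The members span -1.18 to 0.77, the other classical cadherins lie at 0.38 or above, and the epithelial genes reach 9.59 with Krt8.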

How the data were processed

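The authors deposited, for each of 2 libraries made with 10x Genomics chemistry (3′ v3), raw UMI counts per gene and cell for the cells that Cell Ranger 7.0.1 called (5764 adherent and 4951 neurosphere cells, 68531063 and 82832873 UMIs), without normalization and before their quality control. The build named by the submitters' processing notes is mm10, and the setting for reads in introns is not given in the sources used here.

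From these counts, 13 mitochondrial and 101 ribosomal genes were removed, and then cells with under 1000 UMIs or under 1250 (adherent) or 2250 (neurosphere) genes, after the study's thresholds. The kept cells held 46290996 and 64943938 UMIs. No doublets were called or removed, and cells over the 95th percentile of UMIs were left out as an alternative. UMIs were summed per library and given as CPM over the genes left. With 1 library per culture no test was run; cells were not treated as replicates. Intervals are exact (Poisson for CPM, Clopper-Pearson binomial for shares, conditional binomial for log2 fold changes) at 95% and cover counting error only. Those of the log2 change in a UMI ratio between 2 genes use a normal approximation instead. Tested on Poisson counts simulated with a set change for 200 genes of 50 or more UMIs, the log2 interval held the true value in 96.5%. Genes with fewer UMIs were not simulated. Where a library had 0 UMIs of a gene, 3 counts over that library served as its floor. Calls of over 2-fold were limited to genes with 50 or more UMIs, both libraries summed.

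Clusters came from Seurat 5.3.0 under R 4.3.3, with 2000 variable genes less the members, 17 (adherent) and 18 (neurosphere) PCs and a resolution of 1. Thinning drew 5000 UMIs per cell without replacement, and 587 adherent and 80 neurosphere cells were too shallow. Positions and lengths came from GENCODE vM21, in which 32235 identifiers matched. TMM scaling used edgeR 4.0.16. The rest used Python 3.11.15 (scipy 1.17.1, numpy 2.4.6, statsmodels 0.14.6, pandas 2.3.3).

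The members and gene lists were chosen with earlier results of these data known. Beside all members, the text names in each list the 2 highest and 2 lowest log2 fold changes, Ctnnb1, and the 3 genes nearest to each cadherin with at least 1000 UMIs over the clusters of the library where it was higher. Gfap, Aqp4, S100b, Sox2, Slc1a2, Aldh1l1, Aldoc, Ptprc, Adgre1, Cldn5, Twist2, Snai2, Epcam, Ocln, Esrp1, Esrp2, Rab25, Cdh19, Ctnna3, Pkp2, Malat1 and the desmosomal cadherins were named after their values were seen.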

Additional observations from a re-analysis of the deposited data

How the results depend on the processing

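The log2 fold changes of Cdh6, Cdh2, Ctnna1 and Ctnnd1 kept their sign under all 13 alternatives run, in ranges of -1.39 to -0.96, -0.52 to -0.05, 0.45 to 0.88 and 0.55 to 0.99, but the interval of Cdh2 reached 0.00 with mitochondrial and ribosomal UMIs counted, where those of Jup (0.39, 0.07 to 0.72) and Cdh11 (0.90, 0.01 to 1.85) lay above 0. The number of members over 2-fold lower was 0 in place of 1 when mitochondrial and ribosomal UMIs counted in the total, where Cdh6 was at -0.96, and the number over 2-fold higher was 1 in place of 0 in thinned cells, where Cdh11, with fewer UMIs left, was at 1.19. Scaling moved the median of all genes from 0.32 to 0.11 with TMM and to 0.54 with those UMIs counted, and higher genes made up 65.0% of all genes past 2-fold in the main setting, 52.5% with TMM and 75.9% with those UMIs counted. The members' median was also below that of all genes over genes with at least 500 UMIs (0.19 and 0.34, 4 members) and over all genes with a UMI (0.21 and 0.25, 10 members). Jup was the 1 member of at least 50 UMIs whose value changed sign (-0.04 with TMM, 0.53 thinned), with a counting interval of -0.15 to 0.50. The Cdh2 share of the 7 cadherins' UMIs ran from 63.2% to 64.9% in adherent and 76.7% to 78.2% in neurosphere cells. In cells thinned to 3000 UMIs, Cdh2 was seen in 27.8% and 23.9%, and Cdh6 in 16.2% and 7.30%. Clustering at a resolution of 0.8 or with another seed left each highest over lowest cluster ratio within 1.5 times. Leaving out the adherent cluster of 50 cells, an alternative chosen after seeing the data, lowered that ratio from 7.01 to 2.76 for Cdh2 and from 14.1 to 2.69 for Cdh6. No paired analysis was possible because there was 1 library per culture.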

Other observations

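The barcodes that quality control left out, 713 adherent and 675 neurosphere, had medians of 48.8% and 87.0% mitochondrial UMIs. They enter no main result above, and all or some of them enter only alternatives with another cell filter. Cdh2 was at 247 CPM (201 to 302) in those of the adherent and 157 CPM (126 to 192) in those of the neurosphere library, and Cdh6 at 156 CPM (119 to 199.9) and 34.8 CPM (21.3 to 53.7). Ctnna1 was at 140.3 and 151 CPM, and Ctnnd1 at 91.8 and 115 CPM, with intervals that overlap between the libraries for both catenins. Cdh3, Cdh4, Cdh11 and Cdh13 had 0 UMIs in these barcodes, which held 392008 and 574706 UMIs in all.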
